A study of Mus musculus with 12 samples.

Results

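The response of mouse macrophages to LPS was compared with and without earlier exposure to IL-4, gene by gene, to find where the effects of the 2 signals did not simply add. Bone marrow-derived macrophages (BMDMs) are cultured macrophages that develop from precursors of the bone marrow; here they came from wild-type mice of 8 to 12 weeks, after 6 days of differentiation with L929 supernatant, which the labels also give as MCSF, the macrophage growth factor. The 4 groups were untreated cells (control), cells kept for 24 h in IL-4 at 20 ng/ml (IL-4), cells given LPS for 3 h at 100 ng/ml per the labels, for which the study's methods give nM as the unit (LPS), and cells first given IL-4 for 24 h and then LPS for 3 h (IL-4+LPS). Each group held 3 samples, so that all 12 samples of the series entered the comparison, and poly-A RNA was sequenced from each. Per a figure legend of the study the samples came from 3 individual animals and 2 independent experiments. Which animal gave which sample is not stated in the sources used here. P-values below therefore measure the spread between samples of a group, part of which may be technical. Each table listed 23847 gene rows in FPKM, fragments scaled to transcript length and to the number of mapped fragments, and 11191 of them reached 1 FPKM in at least 1 sample and were tested.

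IL-4 is a cytokine of type 2 immunity that signals through STAT6 and moves macrophages towards alternative polarization. LPS, a part of the bacterial cell wall, is sensed by TLR4 and activates NF-κB, AP-1 and, through secreted type I interferon, the interferon response, and it also lowers many genes of the resting macrophage. The interaction of the 2 signals was taken as the log2 change IL-4+LPS minus IL-4, the response to LPS in IL-4-treated cells, less the log2 change LPS minus control, the response without it. A positive interaction means that the LPS response was more positive after IL-4 and a negative one that it was more negative. All log2 values are on the log2(FPKM + 1) scale, which understates changes of genes with low values, and an FPKM is relative to the other RNAs of its own sample.

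Replicates within a group correlated with an r of 0.954 to 0.983 across the tested rows, and no pair of samples was identical. The 4 samples numbered 1 stood apart from the others within every group: on the first component of the deviations from the group means, which held 28.2% of that variance, they scored 15.5 to 33.3 and the other 8 samples -18.6 to -4.45. Each group held 1 of these samples. Relative depth, read from the steps between low values with control replicate 1 set to 1, ran from 0.993 to 3.29. All 7 macrophage markers reached 1 FPKM in at least 1 sample. Their summed level was 19302 to 20692 FPKM in control, 7570 to 7784 in IL-4, 16728 to 17765 in LPS and 6838 to 7133 in IL-4+LPS. Lyz2 alone ran from 4183 to 16507 FPKM across the samples. The study reports Lyz2 and Cd14, another of these markers, as repressed by IL-4, so the sum is no measure of the number of macrophages. Of 8 markers of neutrophils and their precursors 7 were listed and reached 1 FPKM, with summed levels of 375 to 969, 235 to 448, 568 to 1167 and 469 to 941 FPKM in the same order, and the summed markers of T cells, B cells, mast cells, dendritic cells, stroma and erythroid cells stayed at or below 11.7 FPKM, with Mcpt4 among the markers at 0 throughout. The part of such cells in the results was not tested.

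Before the interaction was read, each response was counted on its own. LPS alone raised 16.9% of the tested rows (1887) and lowered 57.7% (6462). After IL-4, LPS raised 15.0% (1682) and lowered 57.9% (6474). IL-4 alone raised 16.0% (1795) and lowered 21.0% (2346), and against the background of LPS it raised 15.0% (1682) and lowered 15.8% (1771). The excess of LPS-lowered rows depended on scaling between samples: the median LPS change over all rows was -0.44 on the log2 scale as deposited, -0.14 after median scaling and -0.12 after quantile normalization, and the share of raised genes among all LPS calls was 22.6%, 40.0% and 40.2% in these fits. An LPS decrease below is therefore a decrease relative to the sample total, and one of less than about this shift is not a decrease relative to the median gene. The median interaction was 0.04, 0.03 and 0.01 in the same fits, so the interaction moved far less.

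The interaction passed the threshold (limma, Benjamini-Hochberg adjusted p below 0.05) in the positive direction for 512 rows, 4.58% of those tested, and in the negative direction for 518, 4.63%. At least 2-fold interactions were found for 146 and 155 of them. LPS-induced genes leaned to negative interactions, with 291 negative (15.4% of 1887) and 95 positive (5.03%). Among LPS-repressed genes 360 of 6462 had a positive interaction (5.57%) and 112 a negative one (1.73%). The 2842 rows without an LPS call held 57 positive and 115 negative interactions. The contrasts LPS minus control and the interaction share the control and LPS samples, so this leaning is a description. Without IL-4 replicate 3 the counts were 325 positive and 334 negative and without LPS replicate 3 they were 311 and 334, while replicates 2 and 3 alone gave 1481 and 1386.

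**Figure D1:**
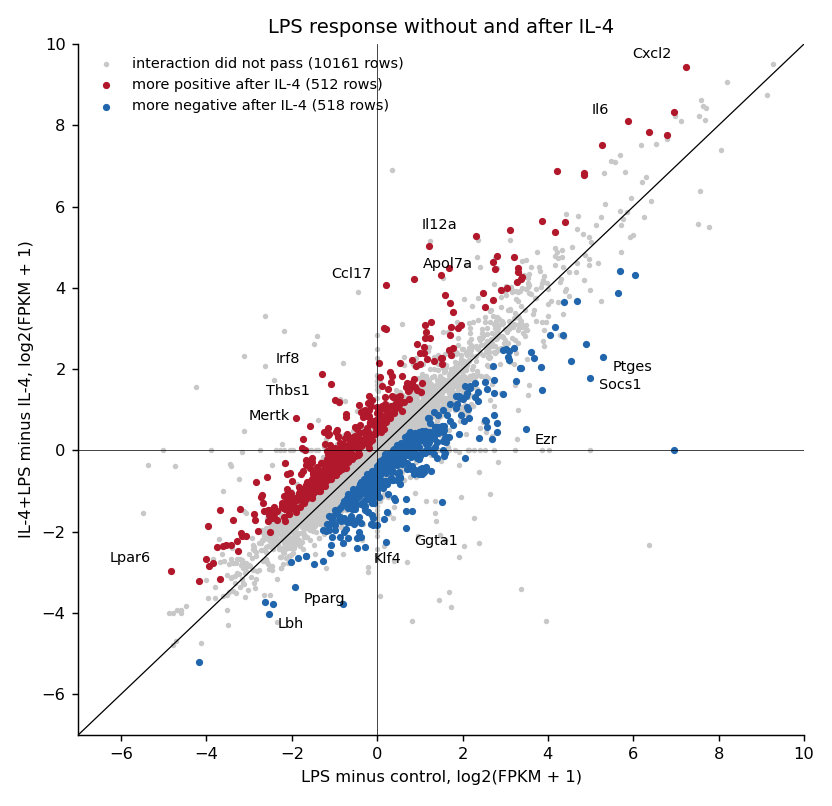
Each point is 1 of the 11191 tested gene rows, with the LPS response without IL-4 on the x axis and the LPS response after IL-4 on the y axis, both as differences of log2(FPKM + 1). Red rows (512) had a positive and blue rows (518) a negative interaction, and the diagonal marks equal responses.

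The rows past the interaction test were divided by the other contrasts. LPS-induced genes were called synergistic where IL-4+LPS was above LPS (52 rows) and rebound where the interaction was positive without that (43), antagonistic where IL-4+LPS was below LPS (199), and saturating where IL-4 alone had already raised them and IL-4+LPS was not below LPS (91). LPS-repressed genes were called lifted where IL-4+LPS was above LPS (134), saturating where IL-4 alone had already lowered them (221), deepened where IL-4+LPS was below LPS (55), and IL-4 induction reduced where IL-4 alone had raised them, the interaction was negative and IL-4+LPS was not below LPS (56). The remaining 7 rows with an LPS call had no further call that placed them. The names of the classes are shorthand for these calls. A contrast that defines a class is given for its members as a description.

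List counts below are to be read against 4.58% positive and 4.63% negative over all rows. Over LPS-induced rows these shares were 5.03% and 15.4%. Among the gene lists the largest share of positive interactions was in a cluster of apolipoprotein L genes on chromosome 15, whose products are related to lipid-binding proteins of immune cells. Apol7c (chromosome 15, 77524867 to 77533315, minus strand) was at 0.587, 1.29 and 0.548 FPKM in control, 9.78, 9.10 and 6.98 with IL-4, 20.1, 15.4 and 9.40 with LPS and 416, 431 and 382 with both. The 3 IL-4+LPS samples were all far above the other 9, and neither signal alone brought the gene near that level. The interaction of Apol7c was 2.32 (standard error 0.34, adjusted p = 0.00203). Apol7a had 0.0398, 0.119 and 0.0362 FPKM in control, 0.561, 0.493 and 0.320 with IL-4, 1.08, 1.07 and 0.668 with LPS and 25.2, 27.5 and 25.8 with both, with an interaction of 3.36 (standard error 0.15, adjusted p = 1.84e-06). Apol7b and Apol7e had no LPS call and were below 0.4 FPKM in all samples of the other 3 groups, but reached 8.17 ± 0.712 and 8.56 ± 0.953 FPKM (mean ± SD, n = 3) in IL-4+LPS. Apol7b and Apol7e share 75.6% and 76.0% of their 50-base words with other genes, mainly each other, and the counting could have split reads between them, while Apol7c and Apol7a share 26.2% and 15.7%. Of 13 genes of the cluster 7 stayed below 1 FPKM. Of the 6 tested 4 had positive interactions (66.7%) and none a negative one, with a median of 2.55 over the 6. Apol7b and Apol7e reached 1 FPKM only in IL-4+LPS, so the filter itself favoured a positive call for them. The share and median of this list are therefore in part set by the filter.

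2 chemokines that attract T cells or eosinophils and are known as IL-4 targets showed the same pattern. Ccl17, a ligand of CCR4 (chromosome 8, 94810453 to 94812036, plus strand), was at 0, 0.200 and 0.162 FPKM in control, 1.35, 4.81 and 1.99 with IL-4, 0, 0.205 and 0.746 with LPS and 25.7, 86.7 and 79.7 with both. LPS alone left Ccl17 under 1 FPKM in every sample, and the IL-4+LPS samples were all above the IL-4 samples. Its interaction of 3.86 (standard error 0.64, adjusted p = 0.00404) was the highest of all genes named here. Ccl24, an eosinophil chemokine, was at 0.621 ± 0.110 FPKM in control, 10.8 ± 1.57 with IL-4, 4.55 ± 1.97 with LPS and 157 ± 70.7 with both (mean ± SD, n = 3), and its interaction of 1.92 (standard error 0.52, adjusted p = 0.0444) lost its call in 11 of the 12 leave-one-out fits (1.58 to 2.38), each without 1 sample. Both had 1 IL-4+LPS sample, replicate 1, well below the other 2.

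Cytokines of the inflammatory response were also among the synergistic genes. Il12a, the p35 subunit of IL-12, was at 0, 0 and 0 FPKM in control, 0, 0.131 and 0 with IL-4, 2.11, 5.07 and 5.49 with LPS and 24.3, 49.4 and 50.5 with both. It was at 0 in all control samples, and the IL-4+LPS samples lay above all LPS samples, with an interaction of 2.96 (standard error 0.43, adjusted p = 0.00199). Tnfsf15, a TNF family ligand that costimulates T cells, was at 0.266, 0.177 and 0.126 FPKM in control, 0.0149, 0.0666 and 0.00849 with IL-4, 8.21, 10.8 and 10.8 with LPS and 18.2, 31.7 and 33.5 with both, with the 3 IL-4+LPS values above the LPS values and an interaction of 1.56 (standard error 0.28, adjusted p = 0.00568). Il6 had an interaction of 2.23 (standard error 0.45, adjusted p = 0.0119) and its level rose from 66.3 ± 15.4 FPKM with LPS alone to 322 ± 145 in IL-4+LPS. Of 23 tested inflammatory cytokines, 20 of them LPS-induced, 6 had a positive interaction (26.1%) and none a negative one. The interaction was above 0 for 15 of the 23 on the log2 scale and for 11 in FPKM. Against LPS alone, 7 of the 23 were higher and 4 lower in IL-4+LPS. The median over the list was 0.70 against 0.04 over all rows. Inhba, the activin A subunit of the growth factor list, reached only 2.75 ± 0.851 FPKM and had an interaction of 0.89 (adjusted p = 0.0383), whose call was lost in 10 of the 12 leave-one-out fits (0.78 to 1.09).

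Several adhesion molecules and costimulatory ligands, which hold and activate T cells, responded to LPS more strongly after IL-4. Vcam1, the ligand of the integrin VLA-4 (chromosome 3, 116110020 to 116129688, minus strand), was at 0.989, 4.79 and 1.34 FPKM in control, 0.341, 1.32 and 0.284 with IL-4, 49.9, 61.0 and 53.9 with LPS and 139.7, 217 and 209 with both. The IL-4 samples overlapped the control samples, and all IL-4+LPS samples were above all LPS samples. Its interaction was 2.66 (standard error 0.53, adjusted p = 0.0106). Icam1, the ligand of LFA-1, was at 30.9, 37.9 and 35.8 FPKM in control, 15.3, 16.9 and 15.2 with IL-4, 828, 1166 and 1114 with LPS and 1409.5, 2266 and 2195 with both. IL-4 alone lowered it, yet each IL-4+LPS sample was above every LPS sample, and the interaction was 1.99 (standard error 0.26, adjusted p = 0.00114). Cd83, a membrane protein of activated antigen-presenting cells, followed the same course with 29.7 ± 2.46 FPKM in control, 17.6 ± 1.93 with IL-4, 91.9 ± 15.6 with LPS and 265 ± 40.5 with both and an interaction of 2.25 (standard error 0.20, adjusted p = 0.000119). Tnfsf4, which is OX40 ligand, rose from 5.57 ± 1.73 FPKM with LPS alone to 16.2 ± 2.26 in IL-4+LPS, with an interaction of 1.39 (standard error 0.25, adjusted p = 0.0061). Of 14 tested genes of this list 6 had a positive interaction (42.9%) and 1, Pdcd1lg2, a negative one (7.14%), with a median of 0.73.

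2 further genes of the class had among the largest interactions. Serpina3g, a serine protease inhibitor of leukocytes, was at 0.0915, 0.171 and 0.125 FPKM in control, 0.691, 0.567 and 0.447 with IL-4, 3.22, 1.89 and 1.58 with LPS and 32.5, 30.3 and 28.1 with both. All 9 samples of the other groups were below 4 FPKM and the IL-4+LPS samples above 28. Its interaction was 2.83 (standard error 0.22, adjusted p = 6.22e-05), and 16.0% of its 50-base words occur in other genes, chiefly Serpina3h. Rhof, a small GTPase that forms filopodia, went from 4.93 ± 1.02 FPKM with LPS alone to 28.4 ± 2.16 in IL-4+LPS and had an interaction of 2.81 (standard error 0.20, adjusted p = 3.39e-05). Over the 52 synergistic rows the median interaction was 1.11. In replicates 2 and 3 alone, an alternative added after seeing the data, 50 of them kept their call. With a pseudocount of 0.1 in place of 1, 36 kept it, 15 lost it with the same sign and 1 changed sign. The control mean was under 1 FPKM for 26 of the rows and the LPS mean for 9. The size of the class depended on 1 sample: it grew to 100 rows without IL-4+LPS replicate 1.

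The promoters of the synergistic genes were read for letters bound by the factors of both signals. The RefSeq promoter (GRCm38.p6, 250 bases before to 50 after the start site) nearest the listed gene start was found for 41 of the 52 rows and for 8791 of all 11191. The STAT6 motif TTCNNNNGAA lay in 5 of the 41 (12.2%) and in 5.52% of all, the κB motif GGGANNTTCC in 1 of 41 (2.44%) and in 1.55% of all, the AP-1 motif TGANTCA in 5 of 41 (12.2%) and in 4.99%, and the interferon response element GAAANNGAAA in 2 of 41 (4.88%) and in 3.39%, each on either strand. The rebound class described next had the STAT6 motif in 5 of 26 promoters (19.2%) and the interferon element in 3 (11.5%), and the antagonistic class in 5.78% and 1.16% of 173. None of the 41 held both a κB and a STAT6 motif. These shares were not tested, and a match is not a bound site. The 200 bases before the start site are shown for 4 genes with a match, picked with their values known and of which Ccl17 had no LPS call and Cxcl2 is a rebound gene, and κB and STAT6 motifs are in capitals: Apol7c (chr15:77533316-77533515, minus strand) and Ccl17 (chr8:94810253-94810452, plus strand) for the STAT6 motif, and Il6 (chr5:30012914-30013113, plus strand) and Cxcl2 (chr5:90903699-90903898, plus strand), described next, for the κB motif.
Apol7c: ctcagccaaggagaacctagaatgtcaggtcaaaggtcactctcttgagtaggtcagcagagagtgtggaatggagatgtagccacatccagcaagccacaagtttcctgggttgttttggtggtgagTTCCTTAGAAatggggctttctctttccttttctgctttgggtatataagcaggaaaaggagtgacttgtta
Ccl17: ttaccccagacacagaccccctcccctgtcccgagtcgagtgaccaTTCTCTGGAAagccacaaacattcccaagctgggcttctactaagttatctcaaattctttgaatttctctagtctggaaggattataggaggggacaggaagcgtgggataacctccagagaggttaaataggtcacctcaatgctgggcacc
Il6: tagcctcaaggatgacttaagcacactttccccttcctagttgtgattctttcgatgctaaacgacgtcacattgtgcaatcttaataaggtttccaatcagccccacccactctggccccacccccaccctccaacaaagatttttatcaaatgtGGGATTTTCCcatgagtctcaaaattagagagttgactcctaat
Cxcl2: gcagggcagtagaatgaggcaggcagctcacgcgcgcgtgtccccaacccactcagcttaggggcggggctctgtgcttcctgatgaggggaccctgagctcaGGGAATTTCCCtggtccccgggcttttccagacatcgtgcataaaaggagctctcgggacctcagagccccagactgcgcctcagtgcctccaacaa
The motif began 72 bases before the start site in Apol7c, 154 in Ccl17 and 44 in Il6, and in Cxcl2 matches on both strands began at 97 and 96 bases and overlapped.

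In a second set of LPS-induced genes, lowered by IL-4 alone, the log2 response to LPS was larger after IL-4. All 43 rebound genes were lowered by IL-4 alone, and in IL-4+LPS 30 did not differ past the threshold from LPS and 13 were lower. Cxcl2, a neutrophil chemokine (chromosome 5, 90903899 to 90905938, plus strand), was at 4.54, 5.94 and 4.30 FPKM in control, 1.52, 0.532 and 0.651 with IL-4, 787, 936 and 948 with LPS and 716, 1686 and 1736 with both. Its IL-4 samples were all below control, whereas the IL-4+LPS samples overlapped the LPS samples, replicate 1 being the lowest. The interaction was 2.19 (standard error 0.44, adjusted p = 0.0116). Nfkbiz, the nuclear IκB family member IκBζ, was at 8.63, 6.08 and 7.04 FPKM in control, 0.887, 0.510 and 0.516 with IL-4, 215, 243 and 249 with LPS and 133, 200.2 and 206 with both, with the IL-4 samples below 1 FPKM and the IL-4+LPS samples below the LPS samples. Its interaction of 1.91 (standard error 0.25, adjusted p = 0.00112) was positive although IL-4+LPS did not exceed LPS. Marcksl1, a binder of actin and calmodulin, was at 24.3, 34.4 and 35.1 FPKM in control, 3.35, 3.31 and 2.25 with IL-4, 1070.2, 1285 and 1318 with LPS and 534, 851 and 814 with both, with every IL-4+LPS sample below every LPS sample and an interaction of 2.25 (standard error 0.29, adjusted p = 0.001).

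The same course was seen for Cxcl16, the ligand of CXCR6, with 80.4 ± 6.09 FPKM in control, 23.6 ± 6.29 with IL-4, 192 ± 16.3 with LPS and 163 ± 2.95 with both and an interaction of 1.52 (standard error 0.21, adjusted p = 0.00139), although 18.3% of its exon bases lie under Zmynd15 on the other strand. Ptger4, the EP4 receptor for prostaglandin E2, was at 6.80 ± 0.884 FPKM in control, 1.78 ± 0.202 with IL-4, 13.9 ± 1.10 with LPS and 16.6 ± 4.61 with both and had an interaction of 1.68 (standard error 0.25, adjusted p = 0.00209), with 15.3% of its exon bases under a gene of the other strand. Itga4, the α4 subunit of the integrin that binds Vcam1, had 17.3, 13.5 and 15.1 FPKM in control, 7.28, 4.79 and 5.84 with IL-4, 35.7, 28.2 and 31.6 with LPS and 36.6, 35.2 and 34.1 with both. The IL-4 samples of Itga4 were below all others, and the LPS and IL-4+LPS samples overlapped. Its interaction was 1.39 (standard error 0.19, adjusted p = 0.00156). Relb and Nfkbie, an NF-κB subunit and an inhibitor of NF-κB, had interactions of 1.13 (standard error 0.16, adjusted p = 0.00172) and 1.10 (standard error 0.20, adjusted p = 0.00606). Tlr2, Cd14 and Nlrp3, sensors of bacterial products and of cell damage, were in this class with interactions of 1.05, 0.95 and 1.22, the call of Cd14 being lost in 10 of the 12 leave-one-out fits (0.83 to 1.15). With both signals all of these sensors were nevertheless below their level with LPS alone, the difference being -1.34 (adjusted p = 6.66e-05), -2.28 (adjusted p = 4.60e-06) and -0.99 (adjusted p = 0.000177) on the log2 scale. Other inflammatory genes that the study follows, Il1b (0.87, adjusted p = 0.592), Il18 (0.04, adjusted p = 0.92), Casp1 (-0.40, adjusted p = 0.447), Clec4d (-0.08, adjusted p = 0.861) and Fcgr1 (-0.49, adjusted p = 0.259), did not pass the interaction test. Clec4d and Fcgr1 passed it on the linear FPKM scale (adjusted p = 0.00443 and 0.0312, limma), with a negative sign, and Il1b in replicates 2 and 3 alone (1.49, adjusted p = 0.0442). Casp1 passed with the replicate number added to the limma model (adjusted p = 0.0307), although these numbers are not known to pair the samples.

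Interferon-stimulated genes belonged to the rebound class as far as they passed. All 32 tested members were LPS-induced, 23 were lowered by IL-4 alone, and only 3 were lower and none higher in IL-4+LPS than in LPS. The median interaction of the list was 0.76, but no more than 5 members passed the test (15.6%), all positive. The interaction was above 0 for 28 of the 32 on the log2 scale and for 12 of the 32 in FPKM, so the direction of the list turned with the scale. Oas2, a sensor of double-stranded RNA, was at 17.1, 11 and 9.05 FPKM in control, 1.99, 0.818 and 0.561 with IL-4, 45.4, 45.2 and 39.0 with LPS and 23.3, 22.7 and 16.4 with both. Its IL-4 samples were below all others, and its IL-4+LPS samples were below the LPS samples and overlapped control at their lower end. The interaction of Oas2 was 1.63 (standard error 0.37, adjusted p = 0.0209), and its call was lost in 4 of the 12 leave-one-out fits (1.40 to 1.91). Ifit1, which binds viral RNA, was at 4.33 FPKM in control, 0.946 with IL-4, 638 with LPS and 596 with both with an interaction of 1.35 (standard error 0.38, adjusted p = 0.0491), a call lost in 10 of the 12 leave-one-out fits (1.09 to 1.64) and also after median scaling and after quantile normalization. Oasl1 and Oasl2, of the same family as Oas2, had 0.98 (adjusted p = 0.0379) and 1.70 (adjusted p = 0.0407), and their calls were lost in 8 and 10 of these 12 fits. Of the 15 tested interferon-inducible GTPases Irgm2 alone passed (0.87, adjusted p = 0.0286), a call lost in 8 of the 12 leave-one-out fits (0.72 to 1.04).

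**Figure D2:**
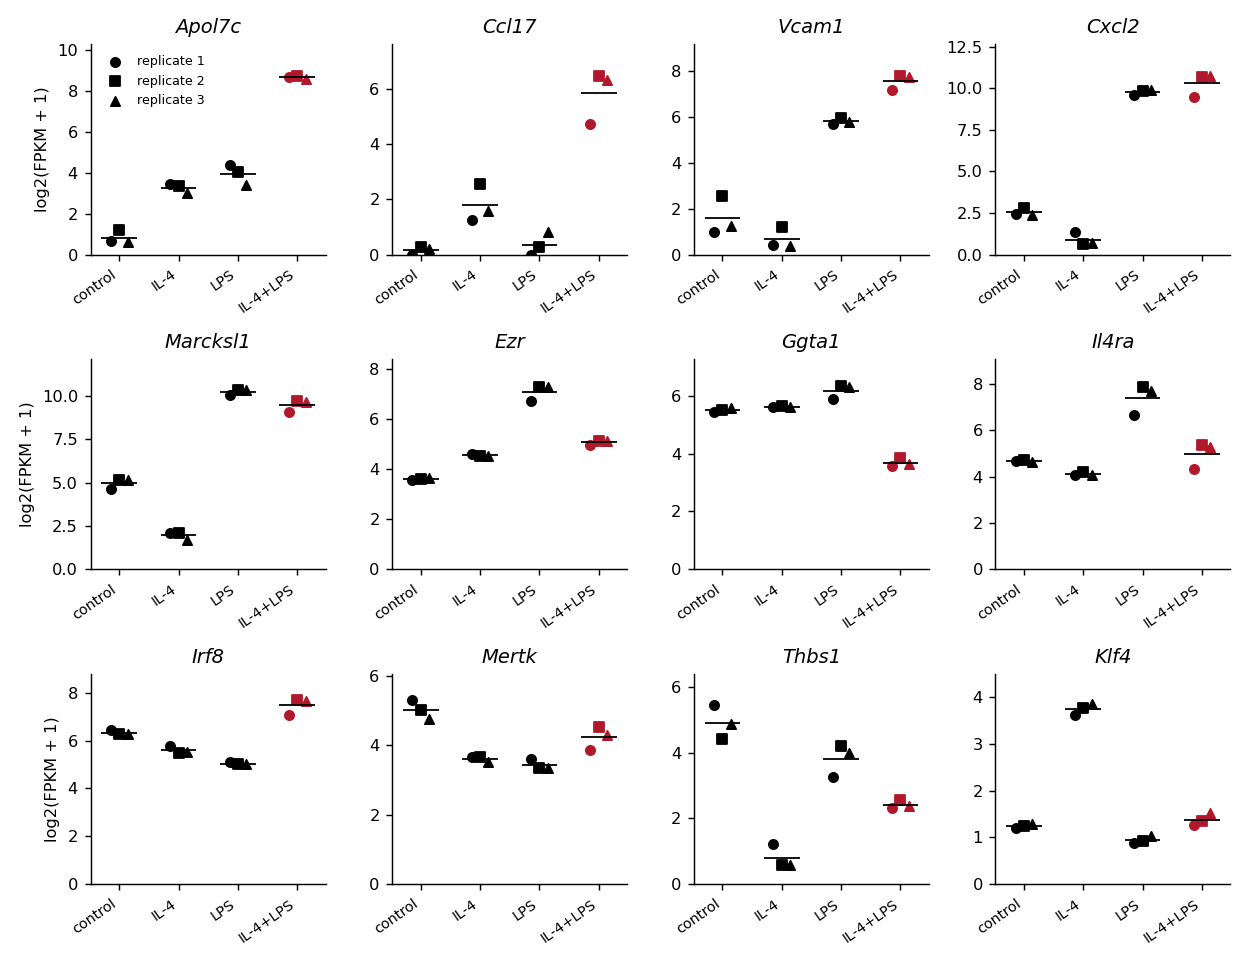
Values of 12 genes in each of the 12 samples as log2(FPKM + 1), with circles, squares and triangles for replicates 1, 2 and 3, the IL-4+LPS samples in red and a line at each group mean. IL-4+LPS is the highest group for Apol7c, Ccl17, Vcam1 and Irf8, falls below LPS for Marcksl1, Ezr, Ggta1 and Il4ra, and returns to near the control or LPS level for Klf4.

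Antagonism was the most frequent form among LPS-induced genes. In 86 of the 199 antagonistic rows LPS still raised the gene after IL-4, in 79 it made no difference past the threshold and in 34 it lowered the gene. Ezr, which encodes ezrin and links the plasma membrane to actin (chromosome 17, 6738131 to 6782780, minus strand), was at 10.9, 11.2 and 11.4 FPKM in control, 23.2, 22.4 and 22.2 with IL-4, 104, 154 and 156 with LPS and 30.2, 33.6 and 34.4 with both. The IL-4 samples were above the control samples, but the IL-4+LPS samples were all far below the LPS samples. The LPS response of 3.49 on the log2 scale became 0.51 after IL-4, an interaction of -2.97 (standard error 0.19, adjusted p = 1.77e-05). Ggta1, the enzyme of the α-galactosyl epitope (chromosome 2, 35400179 to 35461425, minus strand), was at 42.6, 44.8 and 46.2 FPKM in control, 47.4, 48.6 and 47.7 with IL-4, 58.7, 79.4 and 77.5 with LPS and 11, 13.4 and 11.5 with both. LPS raised it in control cells and lowered it after IL-4, so that the IL-4+LPS samples were below all other samples, and the interaction was -2.59 (standard error 0.16, adjusted p = 1.36e-05). Samsn1, an adaptor protein that restrains lymphocyte activation, was at 5.98, 4.36 and 5.61 FPKM in control, 4.90, 2.45 and 4.10 with IL-4, 46.5, 32.5 and 39.7 with LPS and 5.42, 4.44 and 4.26 with both, with IL-4+LPS samples that overlapped control and an interaction of -2.40 (standard error 0.28, adjusted p = 0.000684), and 16.6% of its 50-base words occur in another gene.

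Il4ra, the α chain of the IL-4 receptor itself, was among the antagonistic genes. It was at 24.8, 25.2 and 23.4 FPKM in control, 15.7, 17.4 and 15.9 with IL-4, 99.0, 234 and 207 with LPS and 19.0, 40.3 and 37.9 with both. LPS raised the receptor in all 3 samples of untreated cells, and the IL-4+LPS samples, which spread around the control samples, stayed below all LPS samples. Its interaction was -1.86 (standard error 0.46, adjusted p = 0.0296) and lost its call in 8 of the 12 leave-one-out fits (-2.25 to -1.53). Bcl6, a transcriptional repressor, was at 21.1, 22.1 and 22.8 FPKM in control, 17.4, 16.7 and 16.2 with IL-4, 45.7, 47.6 and 45.7 with LPS and 13.5, 13.1 and 10.1 with both and its 3 IL-4+LPS samples were the lowest of all 12, with an interaction of -1.48 (standard error 0.13, adjusted p = 0.000148). Cxcl11, named for a CXCR3 ligand, went from 6.19 ± 1.09 FPKM with LPS alone to 0.605 ± 0.0931 in IL-4+LPS. Its interaction was -2.13 (standard error 0.15, adjusted p = 3.08e-05), but 41.7% of its exon bases lie under a gene of the other strand. GENCODE lists Cxcl11 as a polymorphic pseudogene, and whether its RNA gives a working chemokine was not tested. Cx3cl1, also called fractalkine, was low throughout, with 2.47 ± 0.763 FPKM with LPS alone and 0.723 ± 0.0885 in IL-4+LPS, and had an interaction of -0.93 (standard error 0.21, adjusted p = 0.02). Of 21 tested chemokines, with Cxcl11 counted among them, 4 were positive (19.0%) and 2 negative (9.52%), with a median of 0.49. After quantile normalization 3 were positive and 3 negative.

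Some genes of glycolysis and of the response to low oxygen were induced less by LPS after IL-4. Hif1a, the oxygen-regulated subunit of HIF-1 (chromosome 12, 73907867 to 73947530, plus strand), was at 21.0, 16.0 and 18.6 FPKM in control, 17.3, 13.8 and 15.4 with IL-4, 47.9, 59.4 and 66.7 with LPS and 17.9, 19.2 and 21.5 with both. The LPS samples were above all others and the IL-4+LPS samples overlapped the control samples, with an interaction of -1.28 (standard error 0.19, adjusted p = 0.00262). Slc2a1, the glucose transporter GLUT1, was at 20.3, 25.2 and 25.5 FPKM in control, 36.2, 43.6 and 41.8 with IL-4, 65.7, 81.9 and 88.1 with LPS and 48.3, 49.6 and 54.0 with both, so that IL-4+LPS lay between IL-4 and LPS, with an interaction of -1.37 (standard error 0.18, adjusted p = 0.00108). Slc16a3, which exports lactate, was at 15.5 ± 1.19 FPKM in control, 11.1 ± 0.708 with IL-4, 49.8 ± 7.46 with LPS and 13 ± 2.26 with both and had an interaction of -1.41 (standard error 0.19, adjusted p = 0.00151). Hk2, the hexokinase that traps glucose in the cell, had 5.29, 5.53 and 5.49 FPKM in control, 13, 12.6 and 11.9 with IL-4, 10.5, 19.4 and 20.1 with LPS and 8.82, 12.3 and 11.7 with both. Both single signals raised it, and the IL-4+LPS samples overlapped both the IL-4 and the LPS samples, with an interaction of -1.59 (standard error 0.29, adjusted p = 0.00653) that placed it in the saturating class. Of 26 tested genes of this list 8 had a negative interaction (30.8%) and 1 a positive one (3.85%). The positive one, of 1.14, was that of Egln3, an oxygen-sensing hydroxylase at 1.80 ± 0.616 FPKM in IL-4+LPS. Egln3 was 0.97 above LPS there on the log2 scale, and neither LPS alone (0.18) nor IL-4 alone (-0.17) had a call. At a level this near the filter of 1 FPKM, the filter could have favoured its positive call. The list's median was -0.29.

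Several inhibitors of LPS signalling also lost part of their response after IL-4. Tnip3, an A20-binding inhibitor of NF-κB, was at 28.8, 38.4 and 39.6 FPKM in control, 45.9, 40.5 and 44.5 with IL-4, 259, 388 and 408 with LPS and 120.1, 168 and 151 with both. All IL-4+LPS samples were below all LPS samples and above control and IL-4, with an interaction of -1.54 (standard error 0.27, adjusted p = 0.00495). Ptpn1, the phosphatase PTP1B, was at 56.3 ± 2.25 FPKM in control, 52.4 ± 0.767 with IL-4, 169 ± 40.9 with LPS and 62.6 ± 12.5 with both and had an interaction of -1.30 (standard error 0.26, adjusted p = 0.0104). Dusp2, a phosphatase of MAP kinases, had -1.78 (adjusted p = 0.0237), a call lost in 6 of the 12 leave-one-out fits (-2.11 to -1.53). Socs1, which blocks JAK kinases, had the largest negative interaction of the named genes, -3.21 (standard error 0.41, adjusted p = 0.00102), but was at 31.5 ± 1.56 FPKM with IL-4 alone, 58.5 ± 19.8 with LPS and 114 ± 35.6 with both, the highest of the groups (0.96 against LPS, adjusted p = 0.0278), and belonged to the saturating class. Of 29 tested genes of the feedback inhibitor list, 21 of them LPS-induced, 7 were negative (24.1%) and 3 positive (10.3%). The positive ones were Nfkbie and Nfkbiz above and Dusp6, a phosphatase of ERK (1.15, adjusted p = 0.0328, a call lost in 7 of the 12 leave-one-out fits (0.96 to 1.33)). LPS alone lowered Dusp6 (-2.65 on the log2 scale), so its positive interaction is a smaller fall. The list's median was -0.31.

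Of 17 tested prostaglandin and leukotriene genes 6 were negative (35.3%) and 1, the receptor Ptger4 above, positive (5.88%). The list's median was 0.11, of the other sign than most of these calls. Ptges, the inducible prostaglandin E synthase, was at 0.724, 0.868 and 1.00 FPKM in control, 0.510, 0.897 and 0.666 with IL-4, 31.0, 126 and 94.7 with LPS and 2.39, 14 and 10.2 with both. It was raised by LPS in every sample, less so after IL-4 with no overlap, but the samples of each group were spread widely and its interaction of -2.99 (standard error 0.80, adjusted p = 0.0422) lost its call in 9 of the 12 leave-one-out fits (-3.59 to -2.35). Ptger2, the EP2 receptor, was at 5.67, 5.10 and 5.43 FPKM in control, 14.5, 18.7 and 17.5 with IL-4, 2.85, 3.28 and 2.77 with LPS and 3.34, 2.87 and 2.83 with both. IL-4 alone raised it, and the LPS and IL-4+LPS samples overlapped below control, an interaction of -1.46 (standard error 0.14, adjusted p = 0.000229). Ptgs1, the constitutive cyclooxygenase, was at 3.36 FPKM in control, 35.7 with IL-4, 0.991 with LPS and 9.30 with both, with an interaction of -0.71 (adjusted p = 0.0296), a call lost in 8 of the 12 leave-one-out fits (-0.81 to -0.62).

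Receptors were found on both sides. Adora2b, an adenosine receptor, was at 2.03, 2.05 and 2.15 FPKM in control, 5.87, 6.07 and 6.43 with IL-4, 2.85, 13.7 and 10.8 with LPS and 1.12, 2.52 and 2.39 with both. Its IL-4 samples were above control and its IL-4+LPS samples spread around the control samples, and the interaction was -2.79 (standard error 0.57, adjusted p = 0.0127). Fcgr2b, the inhibitory receptor for IgG, was at 110.2 ± 7.41 FPKM in control, 214 ± 18.9 with IL-4, 428 ± 115 with LPS and 283 ± 49.3 with both and had an interaction of -1.52 (standard error 0.27, adjusted p = 0.00641). Serpinb2, an inhibitor of plasminogen activators, was nearly absent without LPS and went from 32.4 ± 15.3 FPKM with LPS alone to 5.58 ± 2.56 in IL-4+LPS, with an interaction of -2.29 (adjusted p = 0.0253) that lost its call in 7 of the 12 leave-one-out fits (-2.77 to -1.91). Odc1, the first enzyme of polyamine synthesis, had -1.30 (adjusted p = 0.0239), a call lost in 7 of the 12 leave-one-out fits (-1.57 to -1.15), with 42.2% of its 50-base words found in other genes. Of 15 tested arginine, nitric oxide and polyamine genes 3 were negative (20%) and none positive, with a median of -0.33.

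Genes that IL-4 alone had already raised made up the saturating class. Of its 91 members 23 were higher with both than with LPS alone, and 68 did not differ past the threshold. After IL-4 LPS still raised 38 of them, made no difference past the threshold in 30 and lowered 23, so the name of the class does not describe every member. Acat2 (-0.59, adjusted p = 0.0184) and Tmem26 (-0.84, adjusted p = 0.000119) were among those that LPS lowered. Tmem26, a membrane protein known as a marker of IL-4-treated macrophages (chromosome 10, 68723746 to 68782654, plus strand), was at 0.360, 0.642 and 0.640 FPKM in control, 86.1, 111 and 99.5 with IL-4, 1.11, 1.49 and 1.08 with LPS and 60.1, 49.5 and 54.6 with both. It was high in the samples given IL-4 and low in the others, and the IL-4+LPS samples were all below the IL-4 samples and far above LPS. The interaction was -1.36 (standard error 0.17, adjusted p = 0.001). Acat2, an acetyl-CoA acetyltransferase, was at 3.42 ± 0.519 FPKM in control, 10.4 ± 1.82 with IL-4, 7.84 ± 2.38 with LPS and 6.55 ± 0.623 with both with an interaction of -1.56 (standard error 0.27, adjusted p = 0.00565), although 45.9% of its 50-base words occur in other genes, chiefly Acat3. Pdgfa, a growth factor for mesenchymal cells, was at 7.48 ± 1.97 FPKM in control, 19.8 ± 4.53 with IL-4, 17.7 ± 4.46 with LPS and 14.8 ± 3.98 with both, with an interaction of -1.54 (adjusted p = 0.0278), a call lost in 6 of the 12 leave-one-out fits (-1.74 to -1.33), and 26.1% of its exon bases lie under a gene of the other strand. Without IL-4 replicate 3 the class held 54 rows, without LPS replicate 3 it held 57, and after quantile normalization 194.

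LPS-repressed genes had more positive than negative interactions (5.57% and 1.73%, against 4.58% and 4.63% over all rows). This balance is a description, since the LPS contrast and the interaction share samples. The largest interaction named among these genes was that of Irf8. Irf8 encodes a transcription factor of the monocyte and dendritic cell lineage (chromosome 8, 120736376 to 120756692, plus strand) and was at 86.4, 76.6 and 75.7 FPKM in control, 54.3, 43.1 and 44.9 with IL-4, 33.4, 31.3 and 31.2 with LPS and 132, 205 and 200.4 with both. LPS alone lowered it and IL-4 alone lowered it, but all IL-4+LPS samples were above all other samples. The LPS response changed from -1.29 to 1.88 on the log2 scale, an interaction of 3.16 (standard error 0.22, adjusted p = 2.62e-05). Kctd12b, a potassium channel tetramerization domain protein, was at 10.9, 9.0 and 10.4 FPKM in control, 10.3, 6.39 and 7.57 with IL-4, 2.37, 1.68 and 1.91 with LPS and 19.8, 11.8 and 13.2 with both, and the IL-4+LPS samples were above the control samples. Its interaction was 2.70 (standard error 0.28, adjusted p = 0.000328). Ciita, the master regulator of MHC class II genes (chromosome 16, 10480072 to 10527564, plus strand), was at 5.52, 8.12 and 6.54 FPKM in control, 13.2, 15.2 and 13.9 with IL-4, 2.23, 2.32 and 2.09 with LPS and 17.9, 20.2 and 21.0 with both. LPS lowered it in cells without IL-4, whereas the IL-4+LPS samples were all above the IL-4 samples, and the interaction was 1.71 (standard error 0.16, adjusted p = 0.000229). Among the 8 MHC class II genes tested Ciita was the only one to pass, though the interaction of all 8 was above 0, with a median of 0.22, and all 8 were higher in IL-4+LPS than in LPS.

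Mertk, a receptor with which macrophages take up dying cells (chromosome 2, 128698997 to 128802188, plus strand), was at 38.3, 31.5 and 25.9 FPKM in control, 11.7, 11.7 and 10.5 with IL-4, 11.3, 9.24 and 9.19 with LPS and 13.5, 21.9 and 18.8 with both. LPS and IL-4 each lowered it below the control samples, and the IL-4+LPS samples were all above the LPS samples and below control. The interaction was 2.19 (standard error 0.25, adjusted p = 0.000569). Zfp36l1 and Zfp36l2, which destabilize AU-rich mRNAs, fell strongly with LPS and less after IL-4. Zfp36l2 was at 94.3, 93.0 and 83.2 FPKM in control, 79.5, 73.1 and 75.6 with IL-4, 8.08, 3.68 and 3.77 with LPS and 16.0, 24.1 and 21.4 with both, with the IL-4+LPS samples above LPS and below the rest and an interaction of 2.10 (standard error 0.32, adjusted p = 0.00281). Zfp36l1 had 2.22 (standard error 0.36, adjusted p = 0.00376), but 55.9% of its exon bases lie under a gene of the other strand. Osm, the cytokine oncostatin M, was lowered by LPS from 4.84 ± 0.455 to 1.63 ± 0.185 FPKM and was at 1.76 ± 0.395 in IL-4 and 3.18 ± 1.29 in IL-4+LPS, with an interaction of 1.71 (standard error 0.29, adjusted p = 0.00501). Tgif1, a corepressor of TGF-β signalling, was lifted from 25.4 ± 2.54 FPKM with LPS alone to 43.8 ± 1.53 (0.72, adjusted p = 0.00273). Over the 134 lifted rows the median interaction was 0.78. LPS after IL-4 still lowered 60 of them, made no difference past the threshold in 43 and raised 31. After median scaling 106 of the 134 kept their class, and after quantile normalization 90.

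The largest class was that of LPS-repressed genes already lowered by IL-4. After IL-4 LPS still lowered 173 of these 221 rows, made no difference past the threshold in 38 and raised 10. Thbs1, the matrix protein thrombospondin 1 (chromosome 2, 118111922 to 118127133, plus strand), was at 42.5, 20.1 and 27.9 FPKM in control, 1.32, 0.510 and 0.486 with IL-4, 8.53, 17.2 and 14.8 with LPS and 4.0, 4.84 and 4.2 with both. IL-4 nearly removed it, and LPS after IL-4 raised it, so that the IL-4+LPS samples lay between IL-4 and LPS without overlap. The interaction was 2.71 (standard error 0.42, adjusted p = 0.00278), while the decrease of Thbs1 with LPS alone (-1.09) did not pass after median scaling. Lpar6, a receptor for lysophosphatidic acid (chromosome 14, 73237891 to 73240358, plus strand), was at 56.0, 32.2 and 34.8 FPKM in control, 14.9, 7.60 and 9.11 with IL-4, 0.854, 0.254 and 0.282 with LPS and 0.667, 0.290 and 0.335 with both. LPS brought it below 1 FPKM in every sample with and without IL-4, and the IL-4 samples were already below control. Its interaction was 1.86 (standard error 0.38, adjusted p = 0.0119). Dbp, a transcription factor of the circadian clock, was at 12.0, 11.1 and 11 FPKM in control, 1.88, 2.41 and 2.44 with IL-4, 0.399, 0.378 and 0.203 with LPS and 0.287, 0.180 and 0.0872 with both, again below 1 FPKM in all LPS and IL-4+LPS samples, with an interaction of 1.77 (standard error 0.14, adjusted p = 8.91e-05), and 18.0% of its exon bases lie under Sphk2 on the other strand. Gpr34, a lysophosphatidylserine receptor, had 1.92 (adjusted p = 0.0278), a call lost in 6 of the 12 leave-one-out fits (1.61 to 2.23). Maf, a transcription factor of resting macrophages, was raised by LPS after IL-4 from 12.1 ± 0.984 to 22.5 ± 2.02 FPKM, stayed below LPS alone (53.7 ± 2.93 FPKM, -1.22 on the log2 scale, adjusted p = 1.98e-06) and had an interaction of 1.09 (standard error 0.11, adjusted p = 0.000343). The cyclin Ccnd3, the only 1 of 32 tested cell cycle genes to pass, had 1.10 (standard error 0.19, adjusted p = 0.00479). For Maf and Ccnd3 the decrease with LPS alone (-0.24 and -0.53) was smaller than the scaling shift, or close to it.

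Many members of this class ended near zero. The IL-4+LPS mean was under 1 FPKM for 115 of the 221 rows and the LPS mean for 100. With a pseudocount of 0.1 in place of 1, 83 of the 221 kept their call, 137 lost it with the same sign and 1 changed sign. The class held 126 to 146 rows without each of control replicates 2 and 3, IL-4 replicate 3 and LPS replicates 2 and 3.

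Some LPS-repressed genes fell further after IL-4. Runx1, a transcription factor of blood cell development (chromosome 16, 92601466 to 92826066, minus strand), was at 12.2, 12.0 and 12.6 FPKM in control, 13.2, 11.9 and 12.2 with IL-4, 9.05, 8.56 and 9.06 with LPS and 3.90, 3.01 and 3.09 with both. The IL-4 samples overlapped the control samples, and the IL-4+LPS samples were below all others, an interaction of -1.21 (standard error 0.12, adjusted p = 0.000229). Inpp5f, a phosphoinositide phosphatase, was at 8.75 ± 0.450 FPKM in control, 11.8 ± 0.341 with IL-4, 6.54 ± 0.771 with LPS and 2.74 ± 0.654 with both with an interaction of -1.42 (standard error 0.17, adjusted p = 0.000684). Calhm2, a calcium homeostasis modulator channel, went from 9.07 ± 0.798 FPKM with LPS alone to 2.56 ± 0.815 in IL-4+LPS, with an interaction of -1.22 (standard error 0.21, adjusted p = 0.00544). The LPS decreases of Runx1 and Inpp5f without IL-4 (-0.42 and -0.37) were within the scaling shift and did not pass after either scaling, and 24 of the 55 deepened rows kept their class after median scaling.

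Genes whose rise with IL-4 was smaller in the presence of LPS included transcription factors of alternative polarization. In 34 of the 56 rows IL-4+LPS did not differ past the threshold from LPS, and in 22 it was still higher, as for Klf4, Plk3, Mmp19 and Ptgs1 (0.43, 0.58, 1.48 and 2.36 on the log2 scale). After median scaling 33 of the 56 kept their class, and the LPS decreases of Cblb and Plk3 without IL-4 (-0.48 and -0.39) passed after neither scaling, nor that of Mmp19 (-0.70) after median scaling. Klf4, a zinc finger factor that cooperates with STAT6 (chromosome 4, 55527137 to 55532475, minus strand), was at 1.29, 1.36 and 1.45 FPKM in control, 11.2, 12.6 and 13.5 with IL-4, 0.851, 0.887 and 1.04 with LPS and 1.39, 1.55 and 1.87 with both. The IL-4 samples stood far above all others, and the IL-4+LPS samples overlapped the control samples. The LPS response was -0.30 without IL-4, which is within the scaling shift, and -2.37 after it, an interaction of -2.07 (standard error 0.13, adjusted p = 1.82e-05). Pparg, a nuclear receptor of lipid metabolism, was at 42.6, 43.5 and 41.5 FPKM in control, 101, 97.4 and 89.0 with IL-4, 12.7, 10.2 and 8.85 with LPS and 15.4, 6.37 and 5.84 with both. IL-4 raised it in every sample and LPS lowered it with and without IL-4 to overlapping levels, with an interaction of -1.44 (standard error 0.38, adjusted p = 0.0428) that lost its call in 11 of the 12 leave-one-out fits (-1.84 to -1.21). Myc was at 6.75, 9.21 and 10.4 FPKM in control, 20.2, 26.3 and 25.1 with IL-4, 2.20, 2.43 and 2.83 with LPS and 3.25, 2.10 and 2.36 with both, with the same course and an interaction of -1.33 (standard error 0.24, adjusted p = 0.00585). Cblb, a ubiquitin ligase that restrains receptor signalling, was at 4.70, 6.04 and 6.27 FPKM in control, 22.9, 25.0 and 25.6 with IL-4, 3.74, 3.73 and 3.80 with LPS and 5.91, 2.63 and 3.4 with both and had an interaction of -1.93 (standard error 0.27, adjusted p = 0.00182), and Plk3, a stress-regulated kinase, had -1.74 (standard error 0.17, adjusted p = 0.000276). Mmp19, a matrix metalloproteinase, kept 53.7 ± 7.89 FPKM in IL-4+LPS out of 183 ± 14.8 in IL-4, with an interaction of -1.06 (adjusted p = 0.0422), a call lost in 10 of the 12 leave-one-out fits (-1.33 to -0.89), and 22.3% of its exon bases lie under a gene of the other strand.

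The list of 34 tested genes of alternative polarization, 30 of which IL-4 alone raised, held 9 negative (26.5%) and 2 positive interactions (5.88%). The positive ones were those of Ccl17 and Ccl24. The list's median was -0.11, changed sign to 0.02 after median scaling and was -0.43 after quantile normalization. In that last fit 9 were negative and 1 positive, as Ccl24 lost its call. With the values as deposited 27 of the 34 were still higher in IL-4+LPS than in LPS. Of 53 tested transcription factors 9 were negative (17.0%) and 6 positive (11.3%), with a median of -0.10.

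Interactions were also found in genes without an LPS call of their own. Sh3bp5, an inhibitor of the kinase BTK, was at 55.8, 60.4 and 52.3 FPKM in control, 16.0, 16.3 and 16.6 with IL-4, 73.3, 53.1 and 49.8 with LPS and 68.6, 78.3 and 81.6 with both. IL-4 alone lowered it, and the IL-4+LPS samples were above the control samples, an interaction of 2.11 (standard error 0.18, adjusted p = 0.000115). Btg1, an antiproliferative protein, was at 26, 22.7 and 22.6 FPKM in control, 21.3, 16.4 and 16.4 with IL-4, 32.2, 21.8 and 22.5 with LPS and 61.1, 66.2 and 67.5 with both, highest in the IL-4+LPS samples, with an interaction of 1.73 (standard error 0.21, adjusted p = 0.000808). Sla, a Src-like adaptor protein, was at 11.9, 14.4 and 13.7 FPKM in control, 17.1, 20.6 and 21.7 with IL-4, 18, 13.5 and 15.2 with LPS and 3.32, 3.41 and 3.31 with both. LPS lowered it only after IL-4, to values below all other samples, and the interaction was -2.46 (standard error 0.16, adjusted p = 2.22e-05). Pstpip1, a cytoskeletal adaptor that binds pyrin, was at 71.1, 59.2 and 62.6 FPKM in control, 37.6, 32.2 and 32.0 with IL-4, 74.5, 54.7 and 53.8 with LPS and 14.5, 7.01 and 6.52 with both, again lowest in IL-4+LPS, with -1.75 (standard error 0.34, adjusted p = 0.00961). In 78 of the 115 negative rows without an LPS call IL-4 alone had raised the gene. Slc16a1, a lactate and pyruvate transporter, was at 2.22, 2.62 and 2.62 FPKM in control, 9.89, 11.2 and 10.6 with IL-4, 1.89, 3.57 and 3.47 with LPS and 2.48, 2.64 and 2.65 with both, an IL-4 rise that LPS removed, with an interaction of -1.84 (standard error 0.22, adjusted p = 0.000684). Scn3a, a sodium channel subunit, and Pdcd1lg2, the checkpoint ligand PD-L2, were expressed with IL-4 and partly lost with LPS, from 7.86 ± 0.419 to 1.5 ± 0.133 FPKM and from 21.7 ± 1.62 to 10.5 ± 2.49 FPKM, with interactions of -1.83 (standard error 0.10, adjusted p = 9.32e-06) and -0.96 (standard error 0.19, adjusted p = 0.00936). Nfil3, a basic leucine zipper repressor, had -2.18 (adjusted p = 0.0255), a call lost in 6 of the 12 leave-one-out fits (-2.50 to -1.71). Pycard, the inflammasome adaptor ASC, and Ticam1, the TLR adaptor TRIF, had -0.81 (standard error 0.15, adjusted p = 0.0081) and -0.70 (standard error 0.13, adjusted p = 0.00745). After median scaling LPS alone raised Btg1, Sh3bp5, Sla, Slc16a1 and Nfil3 past the threshold, so their lack of an LPS call depended on the scaling. In that fit 24 of the 57 positive and 49 of the 115 negative rows without an LPS call kept their class.

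In the remaining lists, to be read against 4.58% positive and 4.63% negative over all rows, calls were most frequent among surface receptors of resting macrophages. Of 39 such receptors 8 were positive (20.5%) and 6 negative (15.4%), with a median of 0.10. Of 31 tested pattern recognition and inflammasome genes 3 were positive (9.68%) and 2 negative (6.45%), with a median of 0.20, and 17 of them were lowered by IL-4 alone. Of 24 cholesterol genes 1 passed in each direction, Pmvk (0.68, adjusted p = 0.0233) and Srebf1 (-0.61, adjusted p = 0.035), calls lost in 4 and 9 of the 12 leave-one-out fits. The median was -0.06, and 21 were raised by IL-4 alone. Of 31 growth factor and matrix genes 3 were positive and 2 negative, the same shares, with a median of 0.25. The 32 cell cycle genes, 28 of which LPS repressed, had a median of 0.17.

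**Figure D3:**
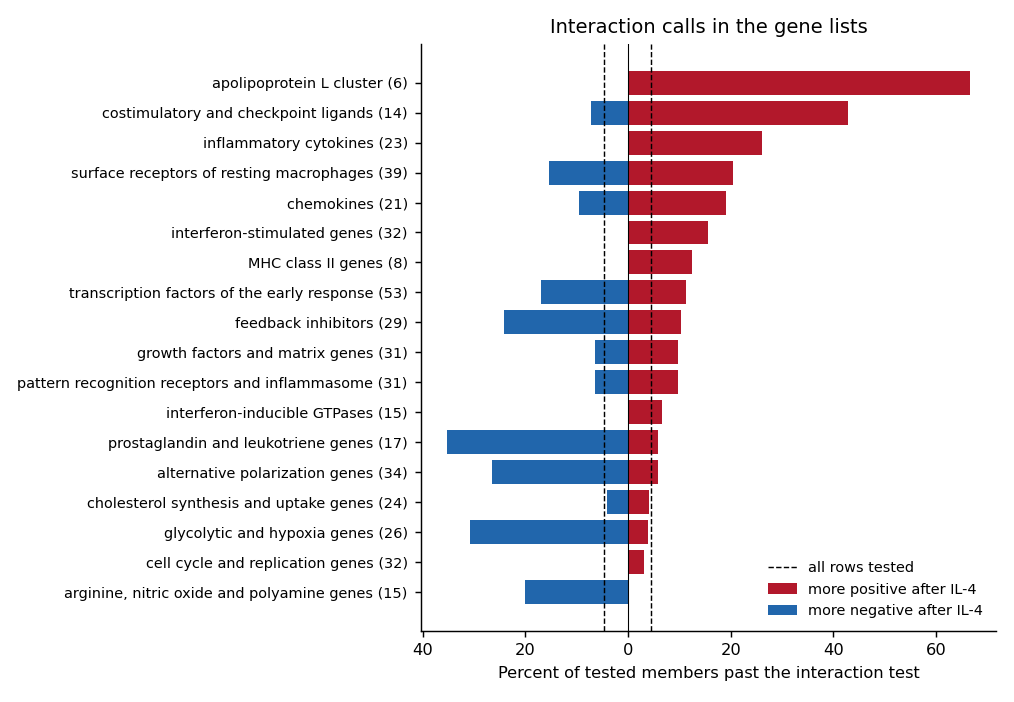
Percent of the tested members of 18 gene lists with a positive (red, right) or negative (blue, left) interaction, with the number tested in parentheses and dashed lines at the 4.58% and 4.63% of all tested rows. The apolipoprotein L cluster and the costimulatory ligands have the largest positive shares, and the prostaglandin, glycolytic and alternative polarization lists the largest negative ones. In the apolipoprotein L cluster Apol7b and Apol7e passed the filter on low values only through IL-4+LPS.

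An interaction on the log2 scale compares ratios, and on the linear scale it compares FPKM gained or lost, so both were read side by side. The linear interaction was the LPS gain in FPKM after IL-4 minus that without it, with a standard error from the 4 group SDs. Of the 512 positive rows 491 were also positive in FPKM (475 beyond 2 standard errors) and 21 negative (12 beyond). Of the 518 negative rows 506 were negative in FPKM (498 beyond 2 standard errors) and 12 positive (5 beyond). All 52 synergistic, 199 antagonistic and 221 LPS-repressed saturating rows had the same sign on both scales. So had all 56 rows whose IL-4 induction was reduced. The calls that define these classes fix that sign, apart from the difference between means of logs and of FPKM. Their agreement is therefore no check, and the counts above include them. In the lifted class the sign was fixed in the same way for the 48 rows that IL-4 alone lowered. It could differ where IL-4 did not lower the gene, with 15 rows raised by IL-4 alone and 71 without a call. The sign was the same in 131 of the 134 rows, which is therefore only in part a check.

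**Figure D4:**
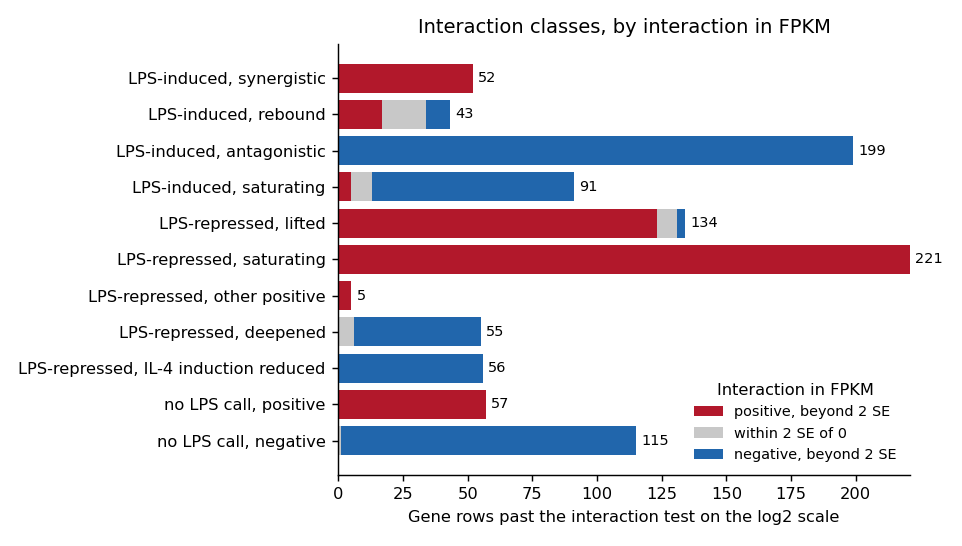
Number of gene rows in each interaction class with at least 5 rows, divided by whether the interaction in FPKM was positive or negative by more than 2 standard errors (SE) or within them. The scales part ways in the rebound class, with 17 positive and 9 negative rows beyond 2 SE, in 5 rows of the LPS-induced saturating class, positive beyond 2 SE, and in 3 rows of the lifted class, negative beyond 2 SE.

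The rebound class was the main exception, with 25 rows positive and 18 negative in FPKM. Marcksl1 gained 1193 FPKM with LPS alone and 730.0 after IL-4, a linear interaction of -463 ± 127 FPKM (± standard error). Nfkbiz gained 228 and 179 FPKM, a difference of -49.4 ± 25.8, which is within 2 standard errors. Oas2 and Ifit1 had linear interactions of -11.2 ± 3.91 and -39.4 ± 32.4 FPKM, and Tlr2, Cd14 and Nlrp3 of -113 ± 11.4, -868 ± 68.6 and -123 ± 10.7 FPKM. Itga4 and Ptger4 instead gained more FPKM after IL-4, by 12.8 ± 2.65 and 7.63 ± 2.78.

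In the LPS-induced saturating class 10 of 91 rows were positive in FPKM. Il4i1, a secreted amino acid oxidase, was at 31.8 ± 8.93 FPKM with IL-4, 87.3 ± 25.8 with LPS and 644 ± 140.1 with both and under 1 in control, so that it was negative on the log2 scale (-1.74 (standard error 0.40, adjusted p = 0.0228)) and positive in FPKM (525 ± 82.4). The log2 call of Il4i1 was lost in 4 of the 12 leave-one-out fits (-2.01 to -1.52), and 83.9% of its exon bases lie under Tbc1d17 on the other strand. Socs1 gained 57.6 FPKM without and 82.6 after IL-4, a difference of 25.0 ± 23.6 FPKM that is within 2 standard errors. Hk2 and Tmem26, by contrast, had linear interactions of -12.8 ± 3.29 and -44.8 ± 7.81 FPKM, of the same sign as on the log2 scale.

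**Figure D5:**
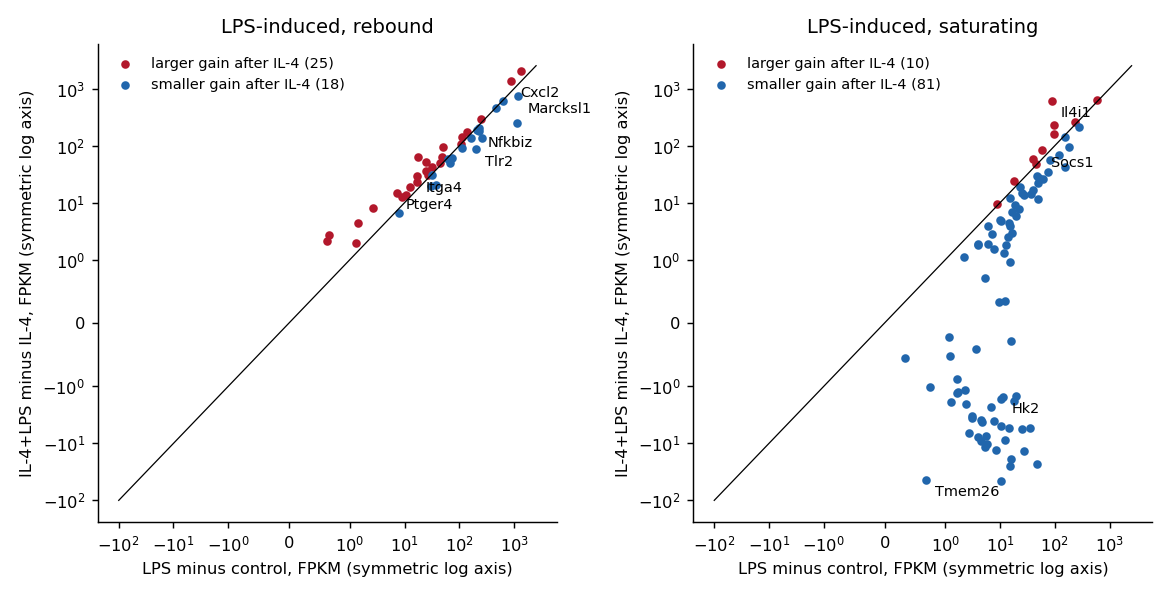
LPS gain in FPKM without IL-4 (x axis) and after IL-4 (y axis), on symmetric log axes, for the 43 rebound rows (left) and the 91 LPS-induced saturating rows (right), with the diagonal at equal gains. In the left panel 25 rows lie above and 18 below the diagonal, and in the right panel 10 above and 81 below.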

How the data were processed

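RNA was sequenced from 12 samples of mouse BMDMs, 3 per group, with the 4 groups taken from the labels. The authors deposited 1 table of FPKM values per sample; per the study's methods and the processing notes in the labels they mapped poly-A library reads to mm10 with TopHat2 2.0.7 and computed FPKM with Cufflinks 2.0.2. The gene annotation, and whether strand was used, are not given in the sources used here. Counts were not among the files analysed, so the absolute depth is unknown, no counting interval was formed, and errors come from the spread between replicates.

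Tables were joined on gene, locus and start site, rows with at least 1 FPKM in any sample were kept, and log2(FPKM + 1) was modelled in R 4.3.3 by limma 3.58.1 (group means of all 12 samples, eBayes with an intensity trend, Benjamini-Hochberg adjustment within each contrast, threshold 0.05). On simulated data of 11191 rows, 76% of 1 log2 and 95% of 2 log2 interactions were recovered, and 4.47% of calls were false. The simulated noise was normal and independent between rows and samples, and interactions were set only in rows well above the low values. The data differ in both respects, with samples numbered 1 that stood apart and many calls near zero. The simulated rates therefore need not hold for the data. Genes named are the 5 largest interactions of each class with at least 5 rows (same sign in replicate numbers 1, 2 and 3, a group mean of at least 5 FPKM, a symbol with 1 row that is no microRNA, snoRNA or predicted gene), up to 4 passing genes per list and direction, and 9 genes the study follows; not every gene so chosen is described. The classes, gene lists and rules were chosen with earlier results of these data known. Gene positions are those of the tables in mm10, counted from 1. Strand, overlapping exons and shared 50-base words (longest transcript against transcripts of other genes) came from GENCODE vM21, and promoters from RefSeq. Alternatives were pseudocounts of 0.1 and 5, median scaling, quantile normalization, no filter on low values, a filter of 1 FPKM in 3 or more samples, no intensity trend, the replicate block, a 2-fold minimum, the linear FPKM scale, each sample left out in turn and, added after seeing the data, replicates 2 and 3 only. Figures were drawn with matplotlib.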

Additional observations from a re-analysis of the deposited data

Results flagged for a closer look

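The LPS response differed between cells without and with IL-4, by the interaction term of the limma model, for 512 rows in the positive and 518 in the negative direction, and these results were singled out because that difference itself was tested. The same test singled out each gene named in the report that passed it, with the following interactions on the log2 scale. For LPS-induced synergistic genes they were 3.36 for Apol7a, 2.96 for Il12a, 2.83 for Serpina3g, 2.81 for Rhof, 2.66 for Vcam1, 2.32 for Apol7c and 2.25 for Cd83. In the same class they were 2.23 for Il6, 1.99 for Icam1, 1.92 for Ccl24, 1.56 for Tnfsf15, 1.39 for Tnfsf4 and 0.89 for Inhba. For rebound genes they were 2.25 for Marcksl1, 2.19 for Cxcl2, 1.91 for Nfkbiz, 1.70 for Oasl2, 1.68 for Ptger4, 1.63 for Oas2, 1.52 for Cxcl16 and 1.39 for Itga4. In the same class they were 1.35 for Ifit1, 1.22 for Nlrp3, 1.13 for Relb, 1.10 for Nfkbie, 1.05 for Tlr2, 0.98 for Oasl1, 0.95 for Cd14 and 0.87 for Irgm2. For antagonistic genes they were -2.99 for Ptges, -2.97 for Ezr, -2.79 for Adora2b, -2.59 for Ggta1, -2.40 for Samsn1, -2.29 for Serpinb2, -2.13 for Cxcl11, -1.86 for Il4ra and -1.78 for Dusp2. In the same class they were -1.54 for Tnip3, -1.52 for Fcgr2b, -1.48 for Bcl6, -1.41 for Slc16a3, -1.37 for Slc2a1, -1.30 for Ptpn1, -1.30 for Odc1, -1.28 for Hif1a and -0.93 for Cx3cl1. For LPS-induced saturating genes they were -3.21 for Socs1, -1.74 for Il4i1, -1.59 for Hk2, -1.56 for Acat2, -1.54 for Pdgfa and -1.36 for Tmem26. For lifted genes they were 3.16 for Irf8, 2.70 for Kctd12b, 2.22 for Zfp36l1, 2.19 for Mertk, 2.10 for Zfp36l2, 1.71 for Ciita, 1.71 for Osm, 0.72 for Tgif1 and 0.68 for Pmvk. For LPS-repressed saturating genes they were 2.71 for Thbs1, 1.92 for Gpr34, 1.86 for Lpar6, 1.77 for Dbp, 1.15 for Dusp6, 1.10 for Ccnd3 and 1.09 for Maf. For deepened genes they were -1.42 for Inpp5f, -1.22 for Calhm2 and -1.21 for Runx1. For genes whose IL-4 induction was reduced they were -2.07 for Klf4, -1.93 for Cblb, -1.74 for Plk3, -1.46 for Ptger2, -1.44 for Pparg, -1.33 for Myc, -1.06 for Mmp19 and -0.71 for Ptgs1. For positive genes without an LPS call they were 3.86 for Ccl17, 2.86 for Apol7b, 2.78 for Apol7e, 2.11 for Sh3bp5, 1.73 for Btg1 and 1.14 for Egln3. For negative genes without an LPS call they were -2.46 for Sla, -2.18 for Nfil3, -1.84 for Slc16a1, -1.83 for Scn3a, -1.75 for Pstpip1, -0.96 for Pdcd1lg2, -0.81 for Pycard, -0.70 for Ticam1 and -0.61 for Srebf1. Groups of 3 samples were not tested for single outlying samples.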

How the results depend on the processing

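FPKM gives no counts, so depth limits the low values in a way that could not be put as an interval, and groups of 3 make calls near the threshold unstable. With the replicate number as a block there were 1145 positive and 1095 negative interactions, 95 synergistic, 398 antagonistic, 196 LPS-induced saturating and 493 LPS-repressed saturating rows. This block rests on numbers that samples only share: same-number deviations had an r of 0.0024 to 0.386, 11 of 18 over 0.1, and 9 of 12 samples were closest to their own number. With replicates 2 and 3 only, an alternative chosen after seeing the data, the same 6 counts were 1481, 1386, 177, 459, 234 and 597. A 2-fold minimum left 146, 155, 16, 46, 13 and 37. On the linear FPKM scale there were 1136 positive and 928 negative interactions, 90 synergistic, 373 antagonistic and 856 LPS-repressed saturating rows. The last class had 79 rows with a pseudocount of 0.1 and 450 with a pseudocount of 5, and the LPS-induced saturating class 194 after quantile normalization. With 1 sample left out the ranges were 311 to 624 positive, 334 to 652 negative, 42 to 100 synergistic, 136 to 262 antagonistic, 54 to 114 LPS-induced saturating and 126 to 294 LPS-repressed saturating rows. The cause of these moves was not tested, other than that a 2-fold minimum can only lower a count of interactions. Of the 512 positive rows 459 kept their call after median scaling, 402 after quantile normalization, 332 with a pseudocount of 0.1 and 372 with no filter on low values, and of the 518 negative rows 487, 470, 426 and 398. No row changed its direction among the calls of these 4 fits. On the linear scale the sign turned for Cd14 (-867.9 FPKM), Marcksl1 (-462.8), Nlrp3 (-122.9), Tlr2 (-112.7), Nfkbiz (-49.4), Ifit1 (-39.4), Irgm2 (-21.6), Oas2 (-11.2), Relb (-5.18), Socs1 (25.0) and Il4i1 (524.9), and that of Il4i1 also turned with a pseudocount of 5 (0.066 on the log2 scale). Of the 95 named genes past the interaction test, 16 lost their call with a pseudocount of 0.1, 22 with no filter on low values, 6 after quantile normalization, 1 after median scaling (Ifit1) and 1 without the intensity trend (Ifit1), all with the same sign. A pseudocount of 5 ended the call of 9 with the same sign, beside the turn of Il4i1, and the linear scale that of 13, beside the 11 whose sign turned. In at least 1 of the 12 leave-one-out fits 23 lost their call, and no sign turned. With the block no named gene lost its call and Casp1 gained one (-0.40, adjusted p = 0.0307), and with replicates 2 and 3 only none lost its call and Il1b gained one (1.49, adjusted p = 0.0442); on the linear scale Clec4d and Fcgr1 gained one.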
